A study of Mus musculus with 8 samples.

Results

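The SoxF transcription factor genes Sox7, Sox17 and Sox18 were examined for SMAD4 peaks together with 4 genes of arterial or venous identity, Nr2f2, Gja4, Gja5 and Selp. The genes were chosen by name, not by a measured value, but with earlier results of these data known. A peak was counted for a gene when its summit lay inside the gene body or within 100 kb of it, on RefSeq gene positions for mm10. This window held 4 of the 1133 peaks called in unstimulated cells and 13 of the 4333 called after BMP9/10. The gene was also the nearest protein-coding gene for 1 of those 4 and 4 of those 13 peaks.

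The cells were MS1, an established endothelial line from mouse pancreatic islets, so all values describe 1 line. Every culture was deprived of serum for 24 h. Unstimulated cells then got fresh medium, and stimulated cells got recombinant BMP9/10 protein at 1 ng/mL, for a time that the labels do not give. Each condition had 2 SMAD4 immunoprecipitates (IP) and 2 inputs, 8 samples in 4 groups, and the authors merged the libraries of a group before calling peaks. The unstimulated IP held 52971023 filtered tags and the stimulated IP 41044888. No value per replicate was analysed, so no difference between the conditions has a replicate check, and no test between them was run. The letters KD stand in both titles of the stimulated IP samples and are not explained by the labels, so "stimulated" below means the libraries so described. Expression was not measured here, so the endothelial identity of the cells was not checked against marker genes.

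SoxF factors share a DNA-binding HMG box and act redundantly in endothelial cells, where they promote arterial fate and vessel integrity. Arterial cells express the connexins encoded by Gja4 and Gja5, while venous cells are maintained by the nuclear receptor COUP-TFII, the product of Nr2f2. Selp encodes P-selectin, which venous endothelium stores and brings to its surface to capture leukocytes. BMP9 and BMP10 signal through the endothelial receptor ALK1. The activated SMADs enter the nucleus with SMAD4, which recognises short GTCT elements in DNA.

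Of the member peaks, the Selp peak overlapped a promoter window whose sequence is in the RefSeq table (GRCm38.p6, the mm10 assembly), and no other did. That table holds 250 bases before and 50 after a gene start and matched 4 of the 7 genes, Selp, Gja4, Gja5 and Nr2f2. The whole peak is shown because it bears on the start of a member gene, chr1:164115078-164115251, plus strand, 174 bases. The promoter window of Gja4, chr4:127313990-127314289, minus strand, is shown beside it as a window with as many GTCT matches and no peak in either list. Capitals mark GTCT on either strand (AGAC when read on the printed strand).
Selp peak: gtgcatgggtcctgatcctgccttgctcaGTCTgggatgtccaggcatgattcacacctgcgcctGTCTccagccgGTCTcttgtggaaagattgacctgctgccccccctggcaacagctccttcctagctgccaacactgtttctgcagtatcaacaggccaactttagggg
Gja4 window: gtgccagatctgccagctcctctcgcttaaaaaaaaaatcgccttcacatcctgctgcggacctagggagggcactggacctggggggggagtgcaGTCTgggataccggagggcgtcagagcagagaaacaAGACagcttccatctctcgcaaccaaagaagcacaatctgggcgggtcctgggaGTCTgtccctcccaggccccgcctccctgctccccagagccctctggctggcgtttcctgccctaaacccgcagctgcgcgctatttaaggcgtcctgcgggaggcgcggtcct

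SMAD4 peaks lay near 2 of the 7 genes in unstimulated cells, Sox7 and Sox18, and near 5 of 7 after BMP9/10, which added Sox17, Gja4 and Selp. Nr2f2 and Gja5 had no peak within 100 kb in either list. Over all 21883 protein-coding genes the same window held an unstimulated peak for 13.1% and a stimulated peak for 36.5%. Selp is the longest of the 7 at 34.8 kb, and among the 15160 protein-coding genes no longer than it the stimulated share was 34.5%. As the nearest protein-coding gene within 100 kb, 1 of the 7 was assigned an unstimulated peak (3.79% of all genes) and 3 of the 7 a stimulated one (12.2% of all genes). No peak of either list lay inside the body of a member gene.

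**Figure D1:**
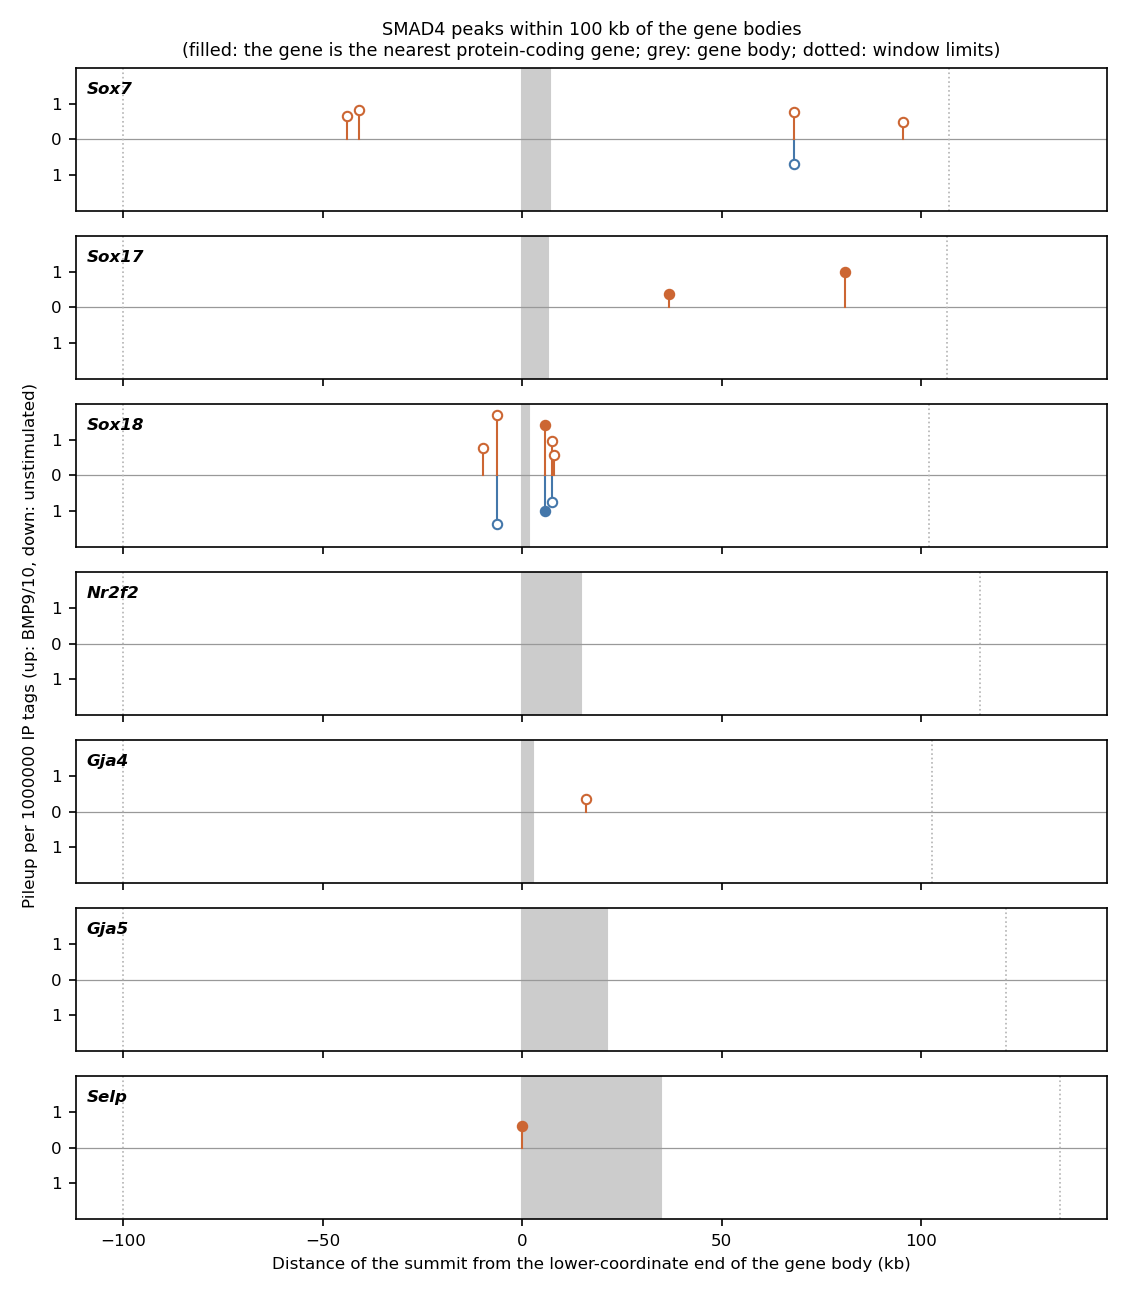
Each row is a gene, with the distance of peak summits from the lower-coordinate end of the gene body in kb on the horizontal axis. Stems give the pileup per 1000000 IP tags, upward for BMP9/10 and downward for unstimulated cells, and filled points mark peaks for which the gene is the nearest protein-coding gene. Sox18 has 5 stimulated and 3 unstimulated peaks within 10 kb of its body, while the rows of Nr2f2 and Gja5 are empty.

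Sox18 carried the densest group of SMAD4 peaks among the members, with and without the ligand. Its gene body spans 1.80 kb on chromosome 2 (181669837 to 181671640), in a window with 10 other protein-coding genes. It had 3 unstimulated and 5 stimulated peaks, all within 9.94 kb of the body. A window with 5 or more stimulated peaks was found at 2.02% of all protein-coding genes. Above and below are directions of coordinates here, not upstream or downstream, since the strand of Sox7, Sox17 and Sox18 was not known. The peak for which Sox18 was the nearest gene lay 4.0 kb above the higher-coordinate end of the body in the unstimulated list (181675498 to 181675835). Its pileup, the number of extended IP tags over the summit, was 53, or 1.00 per 1000000 IP tags. The stimulated peak there (181675490 to 181675763) had a pileup of 58, or 1.41 per 1000000, and its summit lay 36 bp away. The authors' fold enrichment of IP over local background was 6.0 and 7.11, above 88.5% and 90.0% of the peaks of the respective list. That site was thus among the better enriched of each list. The ratio of pileup per tag was 1.41, and its 95% counting interval of 0.956 to 2.09 included 1. All ratio intervals here are exact binomial (Clopper-Pearson) on the pooled tags and cover counting error alone.

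The tallest Sox18 site lay below the lower-coordinate end of the gene body. This site was 6.32 kb away in the unstimulated list (181663119 to 181663591) and 6.40 kb in the stimulated list (181662983 to 181663671). It was nearer to the predicted gene Gm29797, whose body was 3.90 and 3.83 kb away. The pileup per 1000000 tags was 1.36 without and 1.68 with BMP9/10, the highest of any member site in each list. The stimulated peak was 689 bp wide, broader than 99.1% of its list. Here the scales disagreed, since the pileup per tag was 1.24 times as high (0.876 to 1.75) while the fold enrichment was 6.08 without and 5.38 with the ligand. The local background per 1000000 tags was 0.208 and 0.292, so it was higher in the stimulated list.

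The other shared Sox18 site lay 5.68 kb above the higher-coordinate end of the gene. This site was nearer to Tcea2, which encodes a transcription elongation factor (2.98 kb away). It lay at 181677150 to 181677376 without and 181677130 to 181677462 with BMP9/10. Its pileup was 40 tags in both lists, which is 0.755 and 0.975 per 1000000 tags, a ratio of 1.29 (0.811 to 2.05). Fold enrichment was 3.15 and 5.06, with a local background of 0.227 and 0.173 per 1000000 tags, so here the background was lower in the stimulated list. The stimulated list held 2 further peaks in the Sox18 window. The nearer (181677781 to 181677975) began 318 bases after the previous peak and reached 0.585 per 1000000 with a fold enrichment of 3.57. It lay 6.2 kb from Sox18 but 2.46 kb from Tcea2. The farther (181659851 to 181659960), 0.279 kb from Gm29797, had 0.780 per 1000000 on a high local background. Its fold enrichment of 2.54 was above 1.57% of the stimulated list. The peaks in the Sox18 window therefore ran from well enriched sites to sites at the margin of the call. In each list Sox18 was the nearest protein-coding gene to only 1 of them.

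Sox17, the SoxF factor most closely tied to arterial identity, had 0 unstimulated and 2 stimulated peaks. Its body spans 6.50 kb on chromosome 1 (4490928 to 4497426), and the window held 1 other protein-coding gene, Rp1. Both peaks lay above the higher-coordinate end of the body and had Sox17 as the nearest protein-coding gene. The stronger (4571683 to 4571868) lay 74.3 kb away, inside the long non-coding RNA gene Gm37323. It had a pileup of 41, or 0.999 per 1000000 tags, and a fold enrichment of 7.78, the highest of the 13 stimulated member peaks and above 93.2% of its list. The weaker (4527539 to 4527741) lay 30.3 kb away and 0.796 kb from the pseudogene Gm7357, with a pileup of 16, or 0.390 per 1000000, and a fold enrichment of 5.0. Its local background of 0.0585 per 1000000 was below that of every other member site except Gja4. The closest unstimulated peak was 263 kb from Sox17, beside Mrpl15.

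Sox7 had 1 unstimulated and 4 stimulated peaks in its window, and all were closer to other genes. Its body spans 7.03 kb on chromosome 14 (63943706 to 63950732). The shared site lay 61.1 kb away inside Rp1l1, a photoreceptor gene. It had 0.680 per 1000000 tags without (64011738 to 64011847) and 0.780 with BMP9/10 (64011697 to 64011928), a ratio of 1.15 (0.690 to 1.90). Fold enrichment there was 4.57 and 4.18, so enrichment was lower and pileup per tag higher in the stimulated list, with a local background of 0.134 and 0.168 per 1000000 tags. Inside Pinx1, which encodes a telomerase inhibitor, the stimulated list had peaks 44.0 kb (63899633 to 63899852) and 40.9 kb (63902753 to 63902860) from Sox7. They reached 0.658 and 0.828 per 1000000 tags with fold enrichments of 4.0 and 4.49. The remaining peak (64039043 to 64039174) was 88.4 kb from Sox7 and 5.59 kb from Rp1l1, with 0.487 per 1000000 and 3.68. The 3 SoxF genes thus differed in layout, with peaks within 10 kb at Sox18 and none closer than 30.3 kb at Sox17 or 40.9 kb at Sox7.

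The arterial connexin genes had 1 peak between them. Gja4, encoding connexin 37, lies on the minus strand of chromosome 4 (127311420 to 127314039). A stimulated peak (127327308 to 127327453) lay 13.3 kb above its higher-coordinate end, upstream of its start. Gja4 was not the nearest protein-coding gene to that peak. The pileup was 15, or 0.365 per 1000000 tags, the lowest of the 13 stimulated member peaks, on a background of 0.0535 per 1000000. This gave a fold enrichment of 5.01 and a −log10 q of 4.95. The closest unstimulated peak was 1950 kb away. Gja5, encoding connexin 40, spans 97032402 to 97053634 on chromosome 3 and had its closest peaks 305 kb (stimulated, beside Rnf115) and 1364 kb (unstimulated, inside Zfp697) away. No other protein-coding gene lay within 100 kb of Gja5.

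Of the venous genes, Selp had a peak after BMP9/10 and Nr2f2 had none. The Selp peak had its summit 0.09 kb before the start of the gene (chromosome 1, 164115264 to 164150026), the closest of any member peak to its gene. Its pileup was 25, or 0.609 per 1000000 tags. It was weakly enriched, with a fold enrichment of 3.25 (above 12.6% of the stimulated list) and a −log10 q of 3.86. A stimulated peak overlapped a promoter window at 550 of the 17491 protein-coding genes in the promoter table (3.14%), and an unstimulated peak at 98 (0.56%). The selectin gene Sele lies within 100 kb of Selp, and no other peak fell in the Selp window. The closest unstimulated peak was 1606 kb away.

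The printed Selp peak holds 3 GTCT matches, which end 64, 28 and 17 bp before the summit at 164115174. Slices of the same length and place in all 32851 promoter windows held 3 or more GTCT matches in 13.6% of cases, and in 12.9% of the 731 windows that a stimulated peak overlapped. The BMP-type SMAD elements GGCGCC and GGAGCC had no match in the peak (7.45% and 19.7% of such slices hold one). The nuclear receptor element AGGTCA matched on the minus strand at 164115171 to 164115176, across the summit, and 10.0% of slices hold that match. The SOX element ACAAT had no match in the Selp peak (20.4% of slices) and the ETS core GGAA had 2 (85.3% of slices hold at least 1). All motifs were searched on both strands. In the promoter windows without a peak GTCT had 3 matches at Gja4, 2 at Gja5 and 2 at Nr2f2, and 88.0% of all windows hold it. Matches are descriptions of these letters and not of binding.

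Nr2f2 lies in a gene-poor stretch of chromosome 7 (70351946 to 70366746), with the nearest other protein-coding gene 142 kb away. The closest peak of both lists was the same site, 1004 kb from Nr2f2 and 707 kb from Mctp2 (71370263 to 71370471 in the stimulated list). That distant site had 0.434 per 1000000 tags without and 0.901 with BMP9/10, and fold enrichments of 4.14 and 7.60. Within 100 kb of Nr2f2 no SMAD4 peak was called in either list, and no detection limit was computed there.

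All 4 unstimulated member peaks overlapped a stimulated one, as did 95.9% of the unstimulated list. In the other direction 4 of the 13 stimulated member peaks overlapped an unstimulated peak (24.9% of the stimulated list). The shared member sites are 3 at Sox18 and 1 at Sox7. Their pileup per tag was higher in the stimulated list at each, with ratios from 1.15 to 1.41 and a median of 1.26. At none did the counting interval lie above 1. It did at 36.6% of all 1078 pairs on nuclear chromosomes, and 4 sites are too few to set the members apart by this count. The median ratio over all 1078 pairs was 1.47, with quartiles of 1.29 and 1.68. Summed over the 4 member sites the ratio was 1.28 (1.04 to 1.56), while the median ratio of fold enrichment was 1.05, against 1.40 over all pairs. The 3 Sox18 sites lie within 14.5 kb of 1 locus, and the 4 sites are not replicates of a condition.

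**Figure D2:**
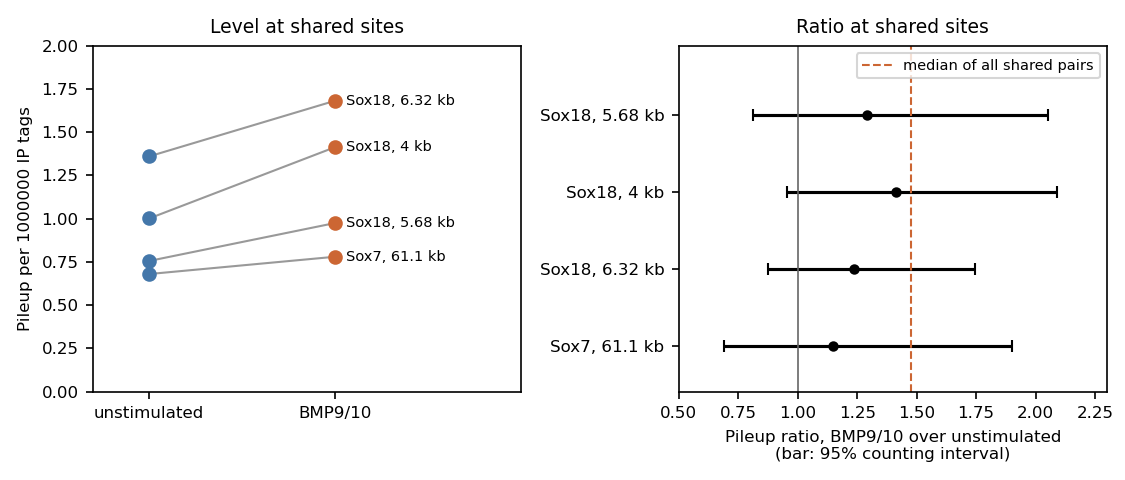
The left panel joins the pileup per 1000000 IP tags of each shared site in unstimulated cells (blue) and after BMP9/10 (orange), with the gene and the distance from its body. The right panel gives the ratio with its 95% counting interval: every ratio lies between 1.15 and 1.41, below the dashed median of 1.47 over all shared pairs, and every interval includes 1.

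The 9 stimulated member peaks without an unstimulated counterpart were 3 at Sox7, 2 at Sox17, 2 at Sox18 and 1 each at Gja4 and Selp. Their fold enrichments ran from 2.54 to 7.78 and their median width was 174 bp, against 304 bp for the 4 shared stimulated peaks. A peak missing from a list is not a measured level of 0. Taking each stimulated local background, scaled to the unstimulated tag number, the highest unstimulated level that would not have been called was computed with the Poisson tail that gave the deposited p-values, against the lowest −log10 p of the unstimulated list (6.03). At the strong Sox17 site that level was 0.359 per 1000000 tags, so the stimulated 0.999 was at least 2.78 times as high on that assumption, before counting error. At Selp it was 0.491, and the stimulated level was at least 1.24 times as high. Over the 9 sites these least ratios ran from 1.12, beside Gm29797 in the Sox18 window, to 2.78, with a median of 1.47. Over all 3245 unshared stimulated peaks the median was 1.55. At the greater unstimulated depth, the stimulated level would have been called at all 9 sites and at all 3245 peaks. A least ratio above 1 thus held for every unshared peak and does not set the members apart. The assumption of an equal background held loosely, since at shared pairs the background ratio had a median of 1.00 and quartiles of 0.821 and 1.29.

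**Figure D3:**
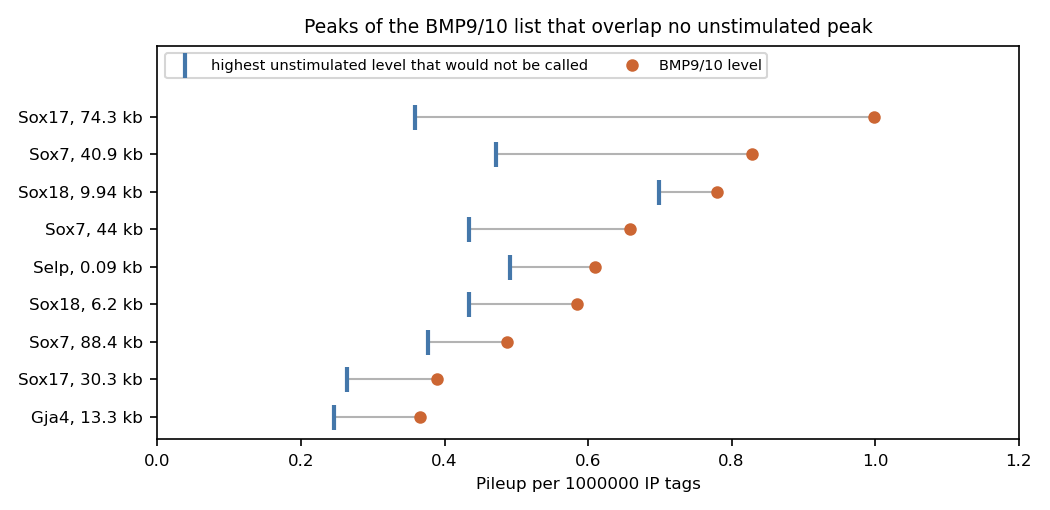
Orange points give the pileup per 1000000 IP tags of the 9 stimulated peaks that overlap no unstimulated peak, labelled by gene and distance from its body, and blue ticks give the highest unstimulated level that would have gone uncalled at the same background. The gap is wide at the Sox17 site 74.3 kb away (0.359 to 0.999) and narrow at the Sox18 site 9.94 kb away (0.698 to 0.780).

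The stimulated member peaks had a median fold enrichment close to that of their list, and the unstimulated ones a higher median than theirs. The median fold enrichment of the 13 stimulated member peaks was 4.49, against 4.56 over the stimulated list. For the 4 unstimulated member peaks it was 5.28, against 4.0 over the unstimulated list, and 3 of these 4 are the Sox18 sites. Sox17 at 74.3 kb and Sox18 at 3.97 kb stood at ranks 291 and 432 of 4333, and the remaining 11 had a fold enrichment of 5.38 or less. In the unstimulated list the Sox18 sites stood at ranks 114, 122 and 914 of 1133 and the Sox7 site at rank 374. Per Mb of window the members had 2.69 unstimulated and 8.73 stimulated peaks, and all protein-coding genes had 0.706 and 2.75. Sox18 alone supplied 3 of the 4 and 5 of the 13 peaks.

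**Figure D4:**
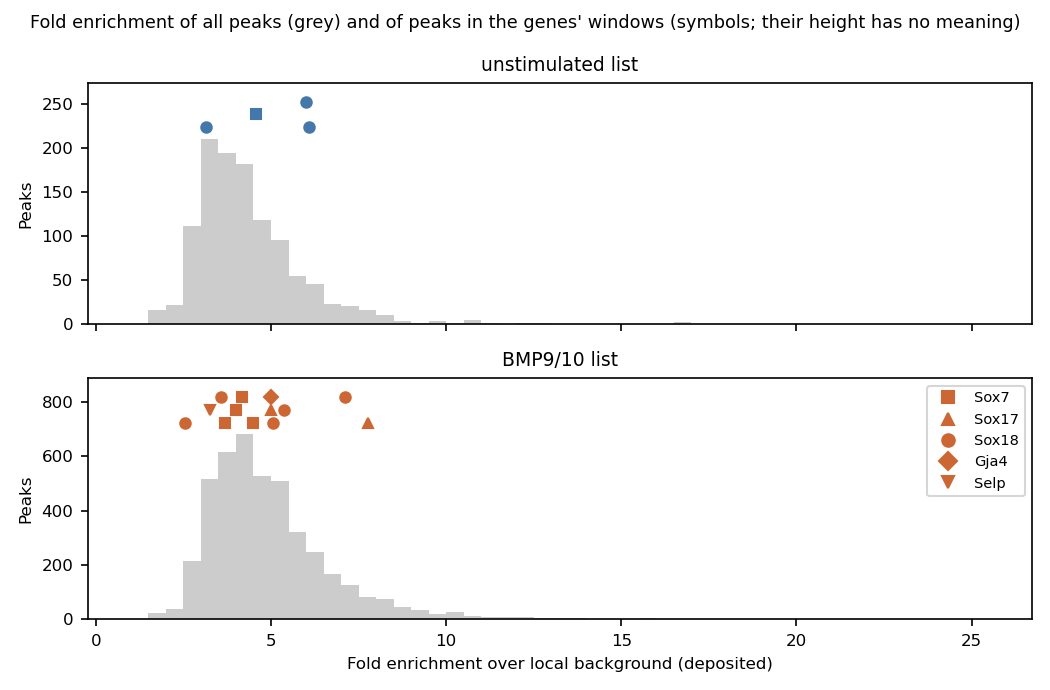
Grey bars count all peaks of a list by the deposited fold enrichment, and symbols mark the peaks in the windows of Sox7, Sox17, Sox18, Gja4 and Selp; the height of a symbol has no meaning. Most symbols sit over the bulk of the bars, with Sox17 at 7.78 and Sox18 at 7.11 to the right in the stimulated list.

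Other genes were taken from 6 lists with 85 genes, of which 16 had an unstimulated and 42 a stimulated peak in the window. The lists hold arterial, venous and lymphatic identity genes, and also other Sox genes, other connexins and nuclear receptors related to Nr2f2. The total therefore mixes identity genes with family relatives and is not a result about arteriovenous genes. The shares over all protein-coding genes were 13.1% and 36.5%. These lists, too, were chosen with earlier results of these data known. Among 22 other arterial genes, 5 had an unstimulated and 14 a stimulated peak (22.7% and 63.6%), and 3 and 9 were the nearest gene to one. The highest stimulated fold enrichments among peaks nearest to an arterial gene were at Epas1, a hypoxia-inducible factor gene (7.13, shared with an unstimulated peak of 4.90), and Nrp1, a VEGF co-receptor gene (5.71). Next came the Notch pathway genes Jag1 (5.51) and Notch4 (5.25), then Dll4 and Unc5b at 5.0. Efnb2, which encodes the arterial marker ephrin-B2, had 1 stimulated peak inside its body (3.86) and no unstimulated peak.

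Among 12 other genes listed under venous identity, 4 had an unstimulated and 10 a stimulated peak in the window (33.3% and 83.3%). Of these 12, 2 and 6 were the nearest gene to one. Vwf (9.70), Emcn (6.77), Ephb4 (6.33) and Smarca4 (4.41) led by fold enrichment, followed by Tek and Bgn at 4.0. Tek and Smarca4 are on this list but are not confined to veins, so 83.3% is the share of the list and not of venous markers alone. Ephb4, the venous receptor for ephrin-B2, had its peak in both lists, with 1.40 per 1000000 tags without and 1.83 with BMP9/10. Sele was counted through the Selp peak alone. Of 8 lymphatic genes 3 had an unstimulated and 4 a stimulated peak. Flt4 led by stimulated fold enrichment (4.44, in the stimulated list alone), followed by Prox1 (4.0) and Pdpn (3.14, shared). Prox1, the master regulator of lymphatic fate and a target of Sox18, was nearest to 2 stimulated peaks. The one with the highest fold enrichment lay 85.2 kb away and was shared. It had 1.04 per 1000000 tags without and 1.63 with BMP9/10, at fold enrichments of 5.60 and 4.0.

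The gene families of the members stood near or below the share of all genes. Of 16 other Sox genes 2 had an unstimulated and 6 a stimulated peak (12.5% and 37.5%), with the strongest inside Sox5 (12.3 stimulated, 7.75 unstimulated). Of 18 other connexin genes 1 and 5 did (5.56% and 27.8%), and 3 of the 5 were counted through the Gja4 peak alone. Of 9 nuclear receptor genes related to Nr2f2 1 and 3 did (11.1% and 33.3%), and none was the nearest gene to a peak. Windows of neighbouring genes overlap, so these genes are not independent.

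**Figure D5:**
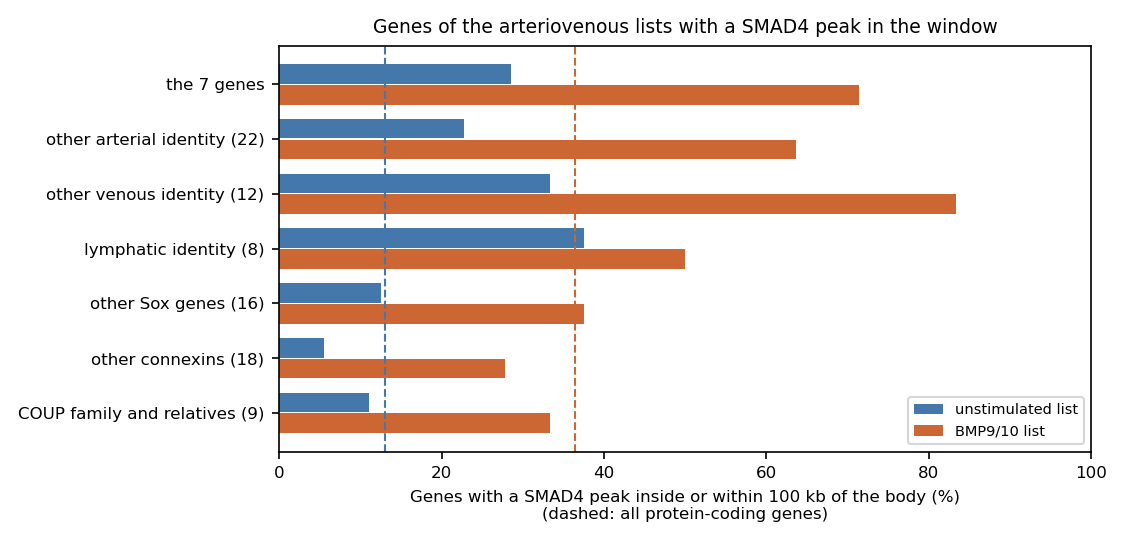
Bars give the percentage of genes in each list with a SMAD4 peak inside or within 100 kb of the body, in unstimulated cells (blue) and after BMP9/10 (orange), with the number of genes in brackets. Dashed lines mark all protein-coding genes, 13.1% and 36.5%: the venous and arterial lists reach 83.3% and 63.6% after BMP9/10, while the Sox, connexin and COUP lists lie between 27.8% and 37.5%.

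By the counts of peaks for which a gene was nearest, Sox18 had 1 in each list, a pattern shared with 408 other protein-coding genes. Sox17 had 0 and 2, as did 263 others, and Selp had 0 and 1, as did 1508 others. Sox7, Nr2f2, Gja4 and Gja5 had 0 in both, like 19184 others. With 2 lists these counts are the full pattern.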

How the data were processed

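SMAD4 ChIP-seq peaks were analysed as the authors deposited them, 1 list per condition, called with MACS2 2.1.0.20140616 on merged IP against merged input, per the file headers. Per the file headers, at most 1 tag was kept per position, tags were extended to 100 bp and the q cutoff was 0.01. The headers differed in band width, 300 for the unstimulated and 200 for the stimulated list, and in tag size, 146 and 140. An effect of these differences was not tested. MACS2, HOMER and the build mm10 are named in the submitters' processing notes. For the aligner, no name was given in the sources used here. The deposited pileup is a coverage signal that is not scaled to depth, and it was divided here by the filtered IP tags of its list. The deposited −log10 p and q values and fold enrichment (a ratio, pileup over local background with 1 added to both) are the authors'. The local background was recovered from the last, and a Poisson tail from it came within 0.000987% of every deposited p-value on the −log10 scale. Positions and widths are in bp, 1-based.

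Gene bodies came from the RefSeq table of GRCm38.p6 (21883 protein-coding genes on assembled chromosomes), which gives no strand. An overlap of 1 bp or more made peaks shared, and each peak was used once, closest summits first, for ratios. The lists used here hold merged libraries and no value per sample, so no test between conditions was run on them. Distances, overlaps and intervals were tested on simulated data. Every member and every peak in its window is named, with any nearer gene that is reported here, and of each other list at most 5 genes by stimulated fold enrichment, ties kept. The members and lists were chosen with earlier results of these data known. Efnb2, Prox1, Sele and the neighbours of peaks beyond the windows were named after their values were seen. Peak sequences outside the promoter table were not analysed here. Python 3.11.15 with numpy 2.4.6, pandas 2.3.3 and scipy 1.17.1 was used.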

Additional observations from a re-analysis of the deposited data

How the results depend on the processing

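Counts of peaks near the 7 genes moved with distance, with the q minimum and with list length. Within 50 kb, 1 gene had an unstimulated peak. Within 20 kb, 1 gene had an unstimulated and 3 a stimulated peak, from 7 stimulated peaks, 2 of them with a member nearest. A −log10 q of at least 5 left 8 stimulated peaks at 3 genes. At 10 it left 2 unstimulated peaks at 1 gene and 4 stimulated peaks at 2 genes, with a member nearest to 2 and with 2 shared. Its best 1133 peaks by q, a stimulated list as long as the unstimulated one, held 4 peaks at 2 genes, Sox17 and Sox18, with a member nearest to 2. The Selp and Gja4 peaks were lost at a −log10 q of 5 and among those 1133. With the nearest gene of any type, a member was nearest to 2 stimulated peaks, since the Sox17 peaks went to Gm37323 and Gm7357. Divided by the median over all shared pairs, the median pileup ratio of the 4 shared sites was 0.857, on the other side of 1. The other 24 alternatives for these counts and this ratio stayed within 1.5 times the count or inside the counting interval. The nearest gene by start was not run, since strand is known for 4 of the 7 genes. No paired analysis was possible because the peak lists used here were called on merged libraries and hold no value per replicate, and for the same reason no replicate was left out. Depth limits what the missing peaks show, as the least ratios above give it.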
